A study of Mus musculus with 6 samples.

Results

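Ribosomal protein genes of the cytosolic and of the mitochondrial ribosome were followed in RAW 264.7 cells, a mouse macrophage line, with and without bacterial lipopolysaccharide (LPS). They were chosen by symbol: a probe had to name 1 gene starting with Rpl or Rps and a digit, without the Rps6k kinases, or starting with Rplp, Mrpl or Mrps. This gave 131 of 10698 named genes, 69 cytosolic (43 Rpl, 23 Rps and 3 Rplp) and 62 mitochondrial (41 Mrpl and 21 Mrps), each group with 69 probes. Every array carried RNA of cells kept for 16 hours with LPS (100 ng/ml) and LPS-binding protein (100 pM), and RNA of untreated cells kept for the same 16 hours. Treated RNA was in Cy5 on 3 arrays and in Cy3 on 3, each orientation with sets 1, 2 and 3. No allele or transgene is named for either group, and the treatment is the only stated difference. Both groups come from the same single line, whose number one label field writes as 264.4, and the labels do not say how many cultures stand behind a set.

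Cytosolic ribosomes translate the mRNAs of the nucleus, and their proteins are among the most abundantly expressed of any growing cell. Mitochondrial ribosomes are built from another set of proteins, also encoded in the nucleus and imported, and translate the few respiratory chain subunits encoded in mitochondrial DNA. In each, the small subunit (Rps, Mrps) reads the message and the large subunit (Rpl, Mrpl) joins the amino acids, while the acidic stalk proteins (Rplp) of the cytosolic large subunit recruit translation factors.

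The values are log2 ratios, given here as treated over untreated, with the SD over 3 sets (n = 3), a set being the mean of its arrays of both orientations. Adjusted p-values are from limma across all 9607 genes with a ratio on all 6 arrays. The table leaves its direction unstated; Cy5 over Cy3 is the likely one, since the Cy5 RNA is labelled as the test sample, and signs here rest on it. Ratios give no level, so whether macrophage markers are present cannot be read from them. Of 18 macrophage markers on the array, 17 were measured, of which 11 rose and 2 fell, where 16.8% of all genes rose and 14.6% fell. Among markers of other cells, 1 of 8 T cell, 2 of 6 B cell and 3 of 8 fibroblast genes rose and 0 fell; their part in the results below was not tested. The number of arrays limits the precision, and fewer cells of a kind and less RNA per cell cannot be told apart.

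The groups differed most in how many ratios the table holds. A value of exactly 0 was read as no ratio, and 30 of 69 cytosolic probes (43.5%) were listed at 0 on all 6 arrays, against 0 of 69 mitochondrial probes and 4.02% of the 13738 named probes. Another 10 cytosolic probes were at 0 on some arrays, so that 29 genes (42.0% of the 69) were measured on all 6. Of the mitochondrial genes, 58 of 62 (93.5%) were measured. The cytosolic results below therefore describe 29 genes and not the group.

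Array by array, the cytosolic share of zeros was 53.6%, 52.2% and 50.7% in sets 1, 2 and 3 with treated RNA in Cy5, and 55.1%, 47.8% and 55.1% with it in Cy3. The mitochondrial shares on the same arrays were 4.35%, 1.45%, 5.80%, 2.90%, 1.45% and 0%. On all named probes the share lay between 7.10% and 10.4%. The cytosolic group was thus above and the mitochondrial group below all named probes on each of the 6 arrays, and the groups' ranges did not overlap.

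**Figure D1:**
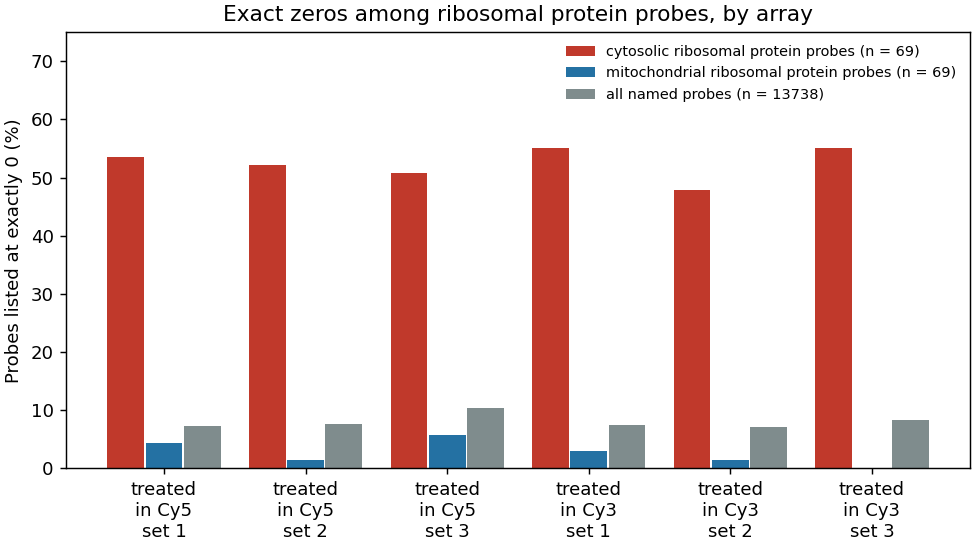
Bars give the percentage of probes listed at exactly 0 on each of the 6 arrays for the cytosolic group, the mitochondrial group and all named probes; there are no error bars because each bar is 1 array. The cytosolic bars stand between 47.8% and 55.1%, the mitochondrial bars at 5.80% or less.

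The small subunit was hit hardest. Of 23 Rps probes, 13 were at 0 on all 6 arrays and 5 on some, which left 5 genes with a value. The members at 0 throughout include Rps6, the substrate of the S6 kinases, and Rps15, Rps16, Rps18 and Rps19. Among 43 Rpl probes 15 were at 0 throughout and 5 in part, and among the 3 stalk genes Rplp0 and Rplp2 were at 0 on all 6 arrays. Rpl5, which with Rpl11 forms the particle that binds the p53 regulator MDM2, and Rpl13a, known for a role in silencing inflammatory transcripts, were also listed at 0 throughout. All 6 paralogues of core proteins on the array (Rpl3l, Rpl7l1, Rpl22l1, Rpl36al, Rpl39l and Rps27l) had a ratio on all 6 arrays. Without them 23 of 63 cytosolic genes were measured. Cytosolic ribosomal protein genes have many processed pseudogenes, so which copy a probe read is uncertain.

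A few members had a ratio on some arrays. Rpl36a, a large subunit protein, stood at 0.26 and 0.60 in sets 2 and 3 with treated RNA in Cy5 and at 0.26 and 0.72 with it in Cy3, with set 1 at 0 on both arrays. With a looser filter, which asked for a ratio on at least 2 of 3 arrays in each orientation, it was at 0.46 (SE 0.12, adjusted p = 0.0390 in limma over 2 sets), where 29.4% of 10222 genes were called. Under the same filter Rpl35a was at 0.28 (adjusted p = 0.0669), Mrpl3 at 0.16 and Mrpl21 at -0.14. The mitochondrial Mrps17 had no ratio where treated RNA was in Cy5 and was at -0.28, -0.57 and -0.32 where it was in Cy3, so no value free of dye can be given. Rps29 had 2 ratios, -0.52 in set 3 with treated RNA in Cy5 and 1.23 in set 2 with it in Cy3. The other members with 2 ratios had them closer together. They were 0.07 and -0.09 in Rps3, -0.03 and 0.27 in Rps10, -0.02 and 0.34 in Rpl21, and -0.65 and 0.06 in Mrpl4.

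The groups also differ in sequence at the transcription start annotated in RefSeq. Cytosolic ribosomal protein mRNAs are known for a terminal oligopyrimidine tract, a C followed by a run of C and T bases through which growth signals control their translation. As examples, 30 bases around the RefSeq start are printed, 20 before it and 10 from it on. Capitals mark a run that begins with C at the start base and goes on with at least 4 bases that are C or T. Shown are stalk and small subunit members at 0 on all arrays (Rplp2, Rps6) and a measured member (Rpl38), each picked with a run. Rplp0 and Rps16, also at 0 throughout, have no such run at the listed start. The called members Rpl14 and Rpl27a and the mitochondrial members with the largest changes are shown as well. Sequences are from RefSeq, GRCm38.p6, 5′ to 3′ on the gene's strand.
Rps6, chr4:86857358-86857387, minus strand: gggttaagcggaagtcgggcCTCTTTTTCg
Rplp2, chr7:141447631-141447660, plus strand: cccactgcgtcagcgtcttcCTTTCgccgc
Rpl38, chr11:114668560-114668589, plus strand: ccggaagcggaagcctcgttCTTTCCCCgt
Rpl14, chr9:120571497-120571526, plus strand: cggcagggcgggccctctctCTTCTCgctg
Rpl27a, chr7:109519175-109519204, plus strand: cgcgagacttcgtgagctcctcccttttcc
Mrps21, chr3:95871505-95871534, minus strand: gcgtagcttcctcccgtcgcgggactccgt
Mrpl18, chr17:12916082-12916111, minus strand: cggcccttgtagctttacccacagttaaca
Mrpl52, chr14:54426889-54426918, plus strand: gtggctgccggggccacgcccacttccggt

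Of the 57 cytosolic genes matched in the promoter table, 12 (21.1%) had such a run at a listed start, against 0 of 56 matched mitochondrial genes and 3.01% of all 27025 genes in the table. A looser count, with the C up to 5 bases from the start, gave 42.1%, 21.4% and 21.2%. Over the 17491 protein-coding genes of the table, the shares were 2.67% and, in the looser count, 21.5%. The starts are annotated and were not measured here, so these shares depend on where the start is placed. In Rpl27a the annotated start falls on a T, and the run lies beside it. Among cytosolic genes, 6 of 28 matched members at 0 on all arrays and 2 of 21 measured on all arrays had the run at the start. The measured genes include the 6 paralogues, none of which has the run at a listed start. In the looser count the run was found in 14 of 28 and 5 of 21, and neither contrast was tested.

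Short motifs were searched on both strands of the 300 bases around each start. The motif CCGGAAG, bound by GABP, a factor of many mitochondrial genes, was in 40.4% of cytosolic and 35.7% of mitochondrial members and in 9.93% of all genes. The NRF1 motif CGCATGCGC was in 5.26%, 10.7% and 1.95%, and the YY1 motif AAGATGGCG in 7.02%, 8.93% and 1.64%. The E-box CACGTG, which Myc can bind, was in 10.5%, 3.57% and 8.09%, and the TATA box letters TATAAA in 10.5%, 7.14% and 15.7%. Over the 17491 protein-coding genes of the table, the shares of the 5 motifs were 12.9%, 2.61%, 2.14%, 8.91% and 14.8%, in the same order. These are matches of letters, which can overlap each other, and not shown sites.

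Between treated and untreated cells the measured members changed in both directions. Of 87 members, 22 (25.3%) passed the threshold, 8 up and 14 down, against 31.4% of all 9607 genes (16.8% up and 14.6% down). By group, 6 of 29 cytosolic genes changed (1 up, 5 down) and 16 of 58 mitochondrial genes (7 up, 9 down). The median log2 ratio was 0.03 for the cytosolic and -0.06 for the mitochondrial genes, beside -0.01 for all genes. A 2-fold change or more was seen in 1 member, against 431 of all genes. Called up were 3.45% of cytosolic and 12.1% of mitochondrial genes, and called down 17.2% and 15.5%. The shares called down were near that of all genes, and the cytosolic calls, 6 in all, were mostly falls.

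**Figure D2:**
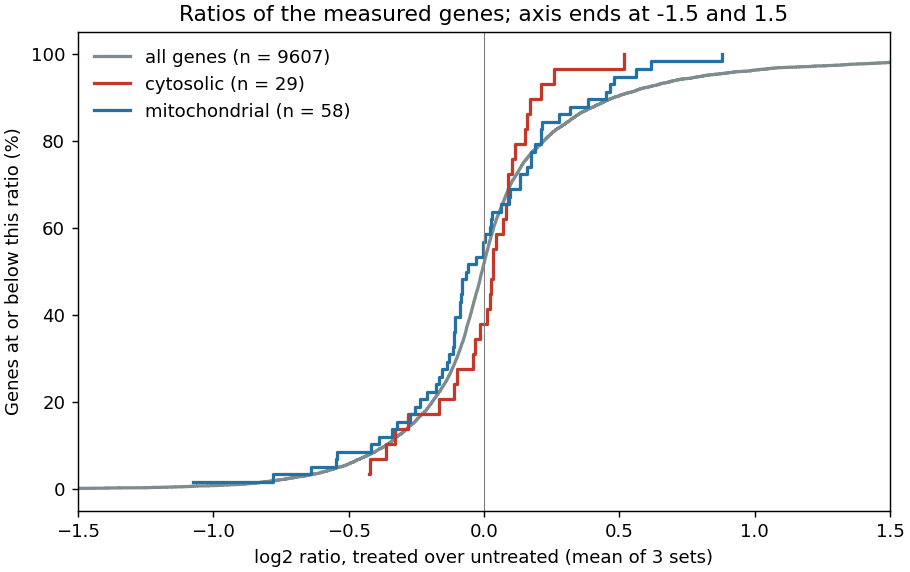
Each line gives the percentage of genes at or below a log2 ratio (treated over untreated, mean of 3 sets) for all 9607 genes, 29 cytosolic and 58 mitochondrial genes; the axis ends at -1.5 and 1.5. The cytosolic line is steepest, its genes lying between -0.42 and 0.52, while the mitochondrial genes reach from -1.08 to 0.88.

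Cytosolic genes were spread less around 0 than mitochondrial ones. Their median absolute log2 ratio was 0.10, against 0.17 for mitochondrial and 0.14 for all genes, and the median SD over sets was 0.13, 0.12 and 0.12. The SD over sets was thus about the same in both groups. It is taken after probes and orientations are averaged, and why the mitochondrial ratios spread wider was not tested. This comparison is a description of the measured genes.

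In the small cytosolic subunit, 2 of 5 measured genes fell, where 14.6% of all genes did; 5 genes are too few to read a share from. Rps27l, a p53-responsive paralogue of Rps27, was at -0.41, -0.77 and -0.38 in sets 1, 2 and 3 with treated RNA in Cy5 and at -0.28, -0.45 and -0.26 with it in Cy3. All 6 arrays were below 0 and set 2 was lowest in both orientations, and the gene was 1.34-fold lower in treated cells (log2 -0.42 ± 0.16, adjusted p = 0.00909). Rps20, a protein of the head of the small subunit, was at -0.32, -0.82 and -0.42 with treated RNA in Cy5 and at -0.35, -0.31 and -0.30 with it in Cy3. Here 5 arrays lay close together and 1 apart, with a mean of log2 -0.42 ± 0.13 (adjusted p = 0.00708). Rps25 (0.15 ± 0.09, adjusted p = 0.184) was the highest of the class, and Rps7 and Rps28 were at 0.08 and 0.02.

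Of 23 large subunit genes, 3 fell (13.0%, near the 14.6% of all genes) and 0 rose, with 4 at an unadjusted p under 0.05 in limma. Rpl27a was between -0.48 and -0.26 on all 6 arrays and 1.28-fold lower (log2 -0.36 ± 0.08, adjusted p = 0.00956). Leaving out set 1 ended its call (adjusted p = 0.0665), as did taking the Cy5 arrays alone (0.0528). Rpl14 ranged from -0.66 to -0.01, with all 6 arrays below 0 (log2 -0.33 ± 0.18, adjusted p = 0.0285), and lost its call without set 2 (0.0854) or set 3 (0.0996), with exact zeros kept as ratios (0.0919), and on the arrays in Cy3 alone (-0.16, adjusted p = 0.259). Its own ratios hold no zero, so keeping zeros altered only the fit across all genes. Rpl37, named after its values were seen, was below 0 on 5 of 6 arrays (-0.28 ± 0.05, adjusted p = 0.0223), a call that ended without set 1, 2 or 3 (0.0693, 0.0907 and 0.0582). Each of these 3 calls thus ended without at least 1 set.

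The other 20 large subunit genes did not pass. Rpl11, the measured partner of Rpl5, was at -0.03 ± 0.10 (adjusted p = 0.816). Rpl22l1, the paralogue of Rpl22, was the highest cytosolic gene at 0.52 but with an SD of 0.69 (adjusted p = 0.140; on the Cy3 arrays alone 0.80 and 0.0246). Set 3 was at 1.31 and sets 1 and 2 at 0.05 and 0.19, so that 1 set carried its mean, which was 0.12 without it. Rpl22 itself was at 0.09 ± 0.07. Rpl3l, a paralogue known from muscle, had positive ratios where treated RNA was in Cy5 (0.28 to 0.64) and negative ones on the 3 others (-0.64 to -0.38), with a mean of -0.04.

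Rplp1 was the measured stalk gene and the single cytosolic gene called up. Its ratios were 0.22, 0.34 and 0.06 in sets 1, 2 and 3 with treated RNA in Cy5 and 0.31, 0.45 and 0.18 with it in Cy3, all 6 above 0. The mean was log2 0.26 ± 0.14 (adjusted p = 0.0491), and the call ended without set 1 (0.168) or set 2 (0.211) and on the Cy5 arrays alone (0.213). It was also lost with arrays scaled to one median absolute deviation (0.0525). The same happened with zeros kept (0.0981), the looser filter (0.0531) or the probe of highest mean absolute ratio (0.0544). Rplp1 has 1 probe without zeros, so these last settings left its own ratios unchanged and altered only the fit across all genes. Tested against a fold of 1.2, 0 cytosolic genes passed in limma, where 12.4% of all genes did. In the test against 0, 7 of 29 (24.1%) had an unadjusted p under 0.05, beside 40.2% of all genes.

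Mitochondrial small subunit genes held the largest change. Mrps21, a small subunit protein with a bacterial counterpart, was at -1.25, -1.46 and -1.11 in sets 1, 2 and 3 with treated RNA in Cy5 and at -1.08, -0.68 and -0.87 with it in Cy3. It was the only member that changed at least 2-fold, 2.11-fold lower (log2 -1.08 ± 0.09, adjusted p = 8.87e-05). Every array lay well below 0, and each ratio with treated RNA in Cy5 was below each one with it in Cy3.

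Mrps25, a protein that bacterial ribosomes lack, was between -0.69 and -0.32 on the 6 arrays (log2 -0.55 ± 0.15, adjusted p = 0.00281). Mrps6 was at -0.54, -0.88 and -0.59 with treated RNA in Cy5 and at -0.38, -0.47 and -0.39 with it in Cy3 (log2 -0.54 ± 0.12, adjusted p = 0.00221). In both genes all 6 arrays were below 0. In the other direction, Mrps5, whose bacterial counterpart acts in the accuracy of decoding, was at 0.56, 0.51 and 0.64 with treated RNA in Cy5 and at 0.51, 0.51 and 0.63 with it in Cy3. These ratios hardly differed between orientations, and the gene was 1.48-fold higher (log2 0.56 ± 0.07, adjusted p = 0.00135). Mrps22, named after its values were seen, was at 0.32 ± 0.15 (adjusted p = 0.0265) with 1 array below 0, and its call ended without set 1 (0.155). Mrps12, a protein of the decoding centre, was at -0.21 ± 0.18 (adjusted p = 0.123).

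**Figure D3:**
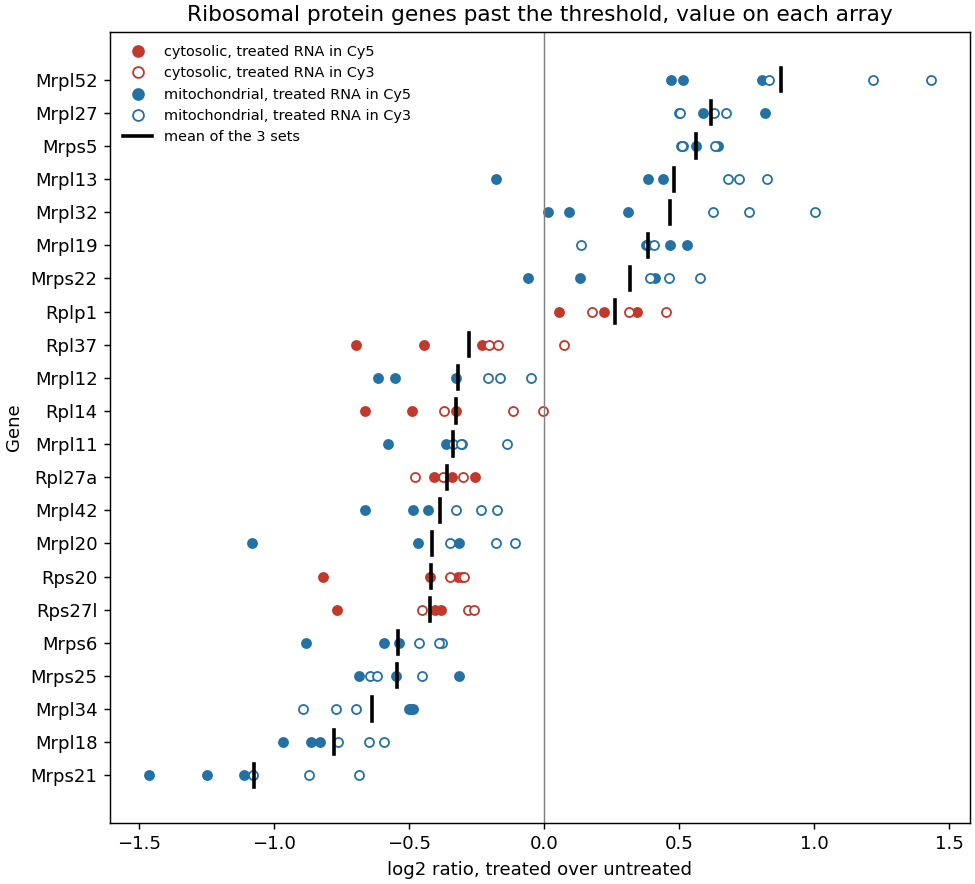
Points are the log2 ratios (treated over untreated) of the 22 called ribosomal protein genes on each of the 6 arrays, filled with treated RNA in Cy5 and open with it in Cy3; black bars are the mean of 3 sets, red is cytosolic and blue mitochondrial. Mrps21 lies lowest at -1.08 and Mrpl52 highest at 0.88, and 19 of the 22 genes have all 6 points on one side of 0.

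In the large mitochondrial subunit 6 of 38 measured genes fell and 5 rose, 15.8% and 13.2%, near the 14.6% and 16.8% of all genes. Mrpl18 was at -0.83, -0.97 and -0.87 in sets 1, 2 and 3 with treated RNA in Cy5 and at -0.59, -0.76 and -0.65 with it in Cy3. It was 1.71-fold lower (log2 -0.78 ± 0.08, adjusted p = 0.000355). Mrpl34 had the opposite dye order, at -0.49, -0.49 and -0.50 in Cy5 and -0.70, -0.77 and -0.89 in Cy3 (log2 -0.64 ± 0.05, adjusted p = 0.000708). In both genes the orientations were apart from each other and yet all arrays were below -0.4.

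Smaller falls followed. Mrpl20 was at -0.42 ± 0.26 (adjusted p = 0.0239) and lost its call without set 2 (0.0822), with zeros kept (0.112), and on the Cy3 arrays alone (-0.21, adjusted p = 0.125). Its probes stood at -0.56 and -0.27, and on both the set 2 array with treated RNA in Cy5 was lowest, at -1.03 and -1.13. Mrpl12, which binds the mitochondrial RNA polymerase, was at -0.32 ± 0.11 (adjusted p = 0.0190), with probes at -0.32 and -0.32, and lost its call without set 2 (0.0891), with zeros kept (0.0504), and on the Cy3 arrays alone (-0.14, adjusted p = 0.271). No probe of Mrpl20 or Mrpl12 held a zero, so keeping zeros altered only the fit across all genes. Mrpl42 (-0.39 ± 0.10, adjusted p = 0.00808) and the stalk base protein Mrpl11 (-0.34 ± 0.12, adjusted p = 0.0155, and 0.0795 without set 2), both named after their values were seen, completed the falls.

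Mrpl52, a protein of the mitochondrial large subunit without a bacterial counterpart, rose most. Its ratios were 0.81, 0.51 and 0.47 in sets 1, 2 and 3 with treated RNA in Cy5 and 1.22, 1.43 and 0.83 with it in Cy3. All 6 lay above 0, the open points above the filled ones, with a mean of 1.84-fold (log2 0.88 ± 0.20, adjusted p = 0.000590). Mrpl27, which in bacteria reaches the catalytic centre, was at 0.82, 0.59 and 0.50 with treated RNA in Cy5 and at 0.63, 0.67 and 0.50 with it in Cy3 (1.54-fold, log2 0.62 ± 0.11, adjusted p = 0.00121). Here the orientations overlapped.

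Mrpl32, a protein matured by the mitochondrial protease m-AAA, was higher on the arrays with treated RNA in Cy3. It was at 0.31, 0.09 and 0.01 with treated RNA in Cy5 and at 0.76, 1.00 and 0.63 with it in Cy3 (log2 0.47 ± 0.13, adjusted p = 0.00464). The first 3 alone gave a mean of 0.14 (adjusted p = 0.399). In a limma model with a dye term, the difference between orientations was not called (adjusted p = 0.127). Mrpl19 was at 0.38 ± 0.11 (adjusted p = 0.00909; 0.0612 without set 1). Mrpl13, named after its values were seen, was at 0.48 ± 0.19 (adjusted p = 0.00710) with 1 array below 0. Mrpl1 missed the threshold (0.45 ± 0.39, adjusted p = 0.0503): its probes stood at 0.90 and -0.00109, and its sets at 0.21, 0.24 and 0.90.

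The remaining 42 mitochondrial genes that did not pass lay between -0.27 and 0.45, and the 23 cytosolic ones between -0.17 and 0.52. Of the 65 uncalled members, 56 had arrays on both sides of 0. A gene without a call is not shown to be unchanged.

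Group medians moved more with orientation and set than between the groups. The cytosolic median was -0.01, -0.15 and -0.11 in sets 1, 2 and 3 with treated RNA in Cy5 and 0.10, 0.33 and -0.05 with it in Cy3. On the same arrays the mitochondrial median was 0.01, -0.22 and -0.08, then 0.05, 0.10 and -0.01. Cytosolic minus mitochondrial was above 0 on 3 of 6 arrays, with a mean of 0.04 ± 0.10 (SD of 3 sets), and was widest in set 2 at 0.15. The median of all genes stayed between -0.02 and 0.02 on these arrays. The difference between the groups was within the spread between sets. Without set 1, 2 or 3 the cytosolic median was -0.00346, -0.0193 or 0.107, and without set 2 the mitochondrial median was 0.00298, so neither sign held.

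**Figure D4:**
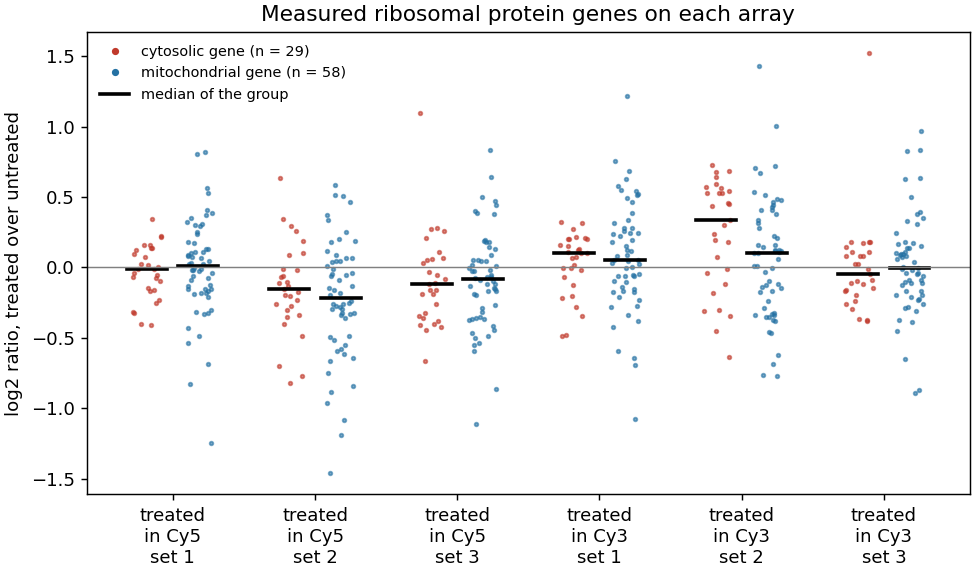
Points are the log2 ratios (treated over untreated) of 29 cytosolic and 58 mitochondrial genes on each array, spread sideways at random, and black bars are group medians. The medians range from -0.15 to 0.33 (cytosolic) and from -0.22 to 0.10 (mitochondrial), both lowest or highest in set 2.

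Averaged per set, the cytosolic median was 0.06, 0.13 and -0.06 in sets 1, 2 and 3, where 18, 20 and 9 of 29 genes were above 0. The mitochondrial median was 0.04, -0.07 and -0.02, with 32, 25 and 27 of 58 genes above 0. These are 62.1%, 69.0% and 31.0% of cytosolic and 55.2%, 43.1% and 46.6% of mitochondrial genes, beside 49.6%, 47.8% and 50.6% of all genes. Set 3 thus had fewer cytosolic genes up than sets 1 and 2. In a model with a dye term, 1 of 87 members, Rpl3l, differed by dye (adjusted p = 0.0458), beside 0.364% of all genes. The median over genes of the mean on Cy5 arrays was -0.07 (cytosolic) and -0.10 (mitochondrial), and that on Cy3 arrays 0.12 and 0.01.

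Related genes outside the symbol rule were read from lists. Of cytosolic ribosomal proteins named otherwise, Fau was measured (0.17 ± 0.16, adjusted p = 0.186). Among 60 measured ribosome biogenesis genes 6 rose and 8 fell, with a median of -0.06. The nucleolar Imp4 (-0.55 ± 0.31, adjusted p = 0.0124) and the helicase Ddx21 (-0.53 ± 0.15, adjusted p = 0.00361) fell most, and Taf1b (0.50 ± 0.18, adjusted p = 0.00552), of the RNA polymerase I machinery, and Noc3l (0.45 ± 0.15, adjusted p = 0.00677) rose most. The share called was 23.3%, beside 31.4% of all genes.

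Mitochondrial translation and assembly genes gave 4 up and 3 down of 19 (36.8%, near the 31.4% of all genes), with a median of -0.07. The RNA-binding protein Slirp rose 2.53-fold (log2 1.34 ± 0.39, adjusted p = 0.000596), and Fars2, the mitochondrial phenylalanine tRNA ligase, rose 2.02-fold (1.02 ± 0.24, adjusted p = 0.000495). The tRNA ligases Cars2 (-0.41 ± 0.03, adjusted p = 0.00441) and Ears2 (-0.39 ± 0.13, adjusted p = 0.0103) fell. Of 3 mitoribosome proteins with other names, Ptcd3 fell (-0.38 ± 0.27, adjusted p = 0.0343), while Dap3 (-0.14) and Chchd1 (0.03) did not pass.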

How the data were processed

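RNA of treated and untreated RAW 264.7 cells was compared on 6 dual-colour arrays. The deposited unit was read from the values as a log2 ratio between an array's channels; how the authors corrected or normalized it is not given in the sources used here. Of 16281 probes, 13738 named 1 gene symbol in the platform annotation, and 138 of these met the symbol rule. Members and lists were chosen with earlier results of these data known.

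Signs were turned by the dye labels so that treated stands over untreated, and exact 0 was read as missing. Probes of a gene were averaged, taking those with a ratio on all 6 arrays, which left 9607 genes. Both orientations of a set number were averaged, giving 3 set values that were tested against 0 with limma 3.58.1 in R 4.3.3 (lmFit and eBayes, two-sided), with Benjamini-Hochberg adjustment over all 9607 genes and a threshold of 0.05. The fit was also run on data simulated with the spread of these genes, and the outcome is not given here. The labels do not say that sets are separate cultures, so p-values reflect only how far these samples spread, and that spread may be technical. A dye term came from a model on the 6 arrays. Medians of groups, shares of zeros and motif counts are descriptions. Start sequences come from the RefSeq promoter table (GRCm38.p6), matched by Entrez gene ID, with Python 3.11.15.

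Named members are those past the threshold with the same sign on all 6 arrays, at most 6 rises and 6 falls in each group. Also named are the highest and lowest of each class, and Rplp0, Rps6, Rpl5, Rpl11, Rps27l, Rpl22l1, Rpl13a, Mrpl12 and Mrps12. Members with probes called in opposite directions were to be named as well, and there were none. Membership follows the symbol alone, which does not show that a protein, such as Mrps36 (log2 0.02 ± 0.10), is part of the ribosome. From other lists the 2 largest rises and falls past the threshold are named. Alternatives covered the zeros, scaling, probe choice, filter, replicate unit, variance moderation, orientation and left-out sets.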

Additional observations from a re-analysis of the deposited data

Results flagged for a closer look

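In 25 sets of 6 array values, 1 array stood apart from the others in Rps20 and in Mrpl20; such a gap is met by chance in about 1 of 20 sets. For both it was the set 2 array with treated RNA in Cy5, at -0.82 in Rps20 and -1.08 in Mrpl20. Without set 2, Rps20 kept an adjusted p of 0.0368 in limma and Mrpl20 had 0.0822.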

How the results depend on the processing

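Under limma's test against a fold of 1.2, calls fell to 767 up and 426 down over all genes, 0 and 0 in the cytosolic and 3 and 5 in the mitochondrial group. With exact zeros kept as ratios, 903 genes were down and 0 cytosolic genes up. That count was also 0 with arrays scaled to one median absolute deviation and with the probe of highest mean absolute ratio, and 2 without a replicate block and on the arrays with treated RNA in Cy3. Mitochondrial genes up numbered 11 without a block and 13 on those arrays. Over all genes 1909 and 1714 were up in these settings, beside 1618 with the 3 set values. With the set number as a replicate block, 4 cytosolic genes fell and 10 mitochondrial genes rose, where 1435 of all genes fell and 1653 rose. Deviations of arrays with one set number correlated at 0.22, 0.079 and 0.57 in sets 1, 2 and 3. Set 2 in Cy5 went better with set 1 in Cy3 (0.21). The correlation within set numbers used for the block was 0.39. These values do not settle whether the numbers pair the arrays throughout. Leaving out a set gave 0 to 1 cytosolic genes up and 3 down, 5 to 9 mitochondrial genes up and 6 to 10 down. Over all genes it gave 1193 to 1579 up and 951 to 1411 down. The cytosolic median was -0.0704 on Cy5 and 0.12 on Cy3 arrays. The mitochondrial one was 0.0120 on Cy3 arrays and -0.0778 to 0.00298 with a set left out. Counted per gene, 58.0% of cytosolic and 8.06% of mitochondrial genes had a zero; 58.0% and 7.25% of probes had one on at least 1 array, and 43.5% and 0% on all 6. Of 336 values of named members under an alternative, 305 kept direction and call, 30 lost the call, 1 gained it and 0 reversed.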

Other observations

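Families near the ribosome in function, picked after the zeros were seen, held fewer zeros than the cytosolic ribosomal proteins. Zeros on all 6 arrays were listed for 11.8% of 51 probes of translation factors, 1.89% of 53 proteasome probes and 4.88% of 82 respiratory chain probes. The cytosolic ribosomal group made up 5.43% of the 552 named probes at 0 throughout and 0.502% of all named probes.

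Other genes that every cell uses, also picked afterwards, were listed at 0 in part. Eef1a1, Tpt1, Fth1, Ftl1 and Aldoa (1 probe each) and both probes of Pkm were at 0 on all 6 arrays. Actb and B2m each had 1 probe at 0 on all 6 arrays and 1 with a ratio on all 6, and of 25 Gapdh probes 6 were at 0 throughout and 10 had all ratios. Tmsb4x had a ratio on all 6 arrays with each of its 3 probes. No source used here says what a zero stands for, and this was not tested.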
